A study of Mus musculus with 12 samples.

Results

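The Wnt target and feedback genes described here are Sp5, Axin2, Lef1, Tcf7, Nkd1, Notum, Lgr5, Cdx1, Wnt6 and Dkk1. They were taken by name from the array annotation, and a gene with several probe sets would have been represented by the brightest by mean over the 12 arrays. Of the 10 genes 9 were found, each with 1 probe set, among 19938 genes measured in all; Tcf7 is not analysed here. The 12 Affymetrix arrays cover 4 mouse lines of induced pluripotent stem (iPS) cells, somatic cells returned to an embryonic state, with 3 cultures of each given as biological repeats. The lines share their origin, C57BL/6J embryonic fibroblasts reprogrammed with 3 factors, and were kept in medium for embryonic stem cells. LiPS-45 and LiPS-57 carry the label of tetraploid complementation competence, the capacity to form a whole fetus in a tetraploid host embryo, while LiPS-47 and LiPS-50 are labelled as lacking it. Competence was a property of a line, whereas p-values between lines measure only the spread between cultures. The labels used here name neither the factors nor any feeder layer.

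In canonical Wnt signalling a secreted Wnt ligand binds a Frizzled receptor together with Lrp5 or Lrp6. This stops the complex of Axin, Apc and Gsk3 from marking beta-catenin for destruction, and beta-catenin then enters the nucleus and joins the DNA-binding proteins Tcf7, Lef1, Tcf7l1 and Tcf7l2. Genes that beta-catenin switches on serve as readouts of the pathway, and several of them encode brakes on it. In mouse embryonic stem cells Wnt signals favour self-renewal, largely by relieving repression by Tcf7l1, and in the embryo they start the primitive streak.

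Promoter sequences are shown for 3 members with different behaviour on the arrays: Sp5, with the widest difference between lines, Axin2, which differed in the same direction, and Dkk1, which passed no test. Each is the stretch of 250 bases before the annotated start, from RefSeq on GRCm38.p6, read 5′ to 3′ on the gene's own strand, with matches to the core letters bound by Tcf and Lef proteins in capitals. The motif searched on both strands was CTTTGNN, with A or T allowed at each N, so a capital run can be its reverse complement; no matches overlapped in these windows.
Sp5, chr2:70474673-70474922, plus strand: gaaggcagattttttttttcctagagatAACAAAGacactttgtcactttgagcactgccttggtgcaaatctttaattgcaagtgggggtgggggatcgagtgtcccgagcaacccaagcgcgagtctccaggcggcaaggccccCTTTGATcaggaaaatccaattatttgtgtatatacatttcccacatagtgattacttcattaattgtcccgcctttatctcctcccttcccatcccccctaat
Axin2, chr11:108920099-108920348, plus strand: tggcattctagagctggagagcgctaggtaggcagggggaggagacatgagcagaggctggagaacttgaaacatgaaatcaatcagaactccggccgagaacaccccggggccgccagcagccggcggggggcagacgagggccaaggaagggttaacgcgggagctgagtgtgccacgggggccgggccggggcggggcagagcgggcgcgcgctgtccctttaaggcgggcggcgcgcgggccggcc
Dkk1, chr19:30549497-30549746, minus strand: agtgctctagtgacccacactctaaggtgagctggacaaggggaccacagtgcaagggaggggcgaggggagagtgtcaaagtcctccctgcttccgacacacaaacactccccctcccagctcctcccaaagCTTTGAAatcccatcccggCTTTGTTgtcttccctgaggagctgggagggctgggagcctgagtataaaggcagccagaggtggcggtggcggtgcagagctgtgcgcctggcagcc

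The Sp5 window held 2 matches, one on the opposite strand reaching 222 bases before the start and one on the gene's strand beginning 104 bases before it. The Dkk1 window also held 2, both on the gene's strand and beginning 117 and 98 bases before the start. The Axin2 window held 0, which says only that these letters are not in this stretch. Of the 9 measured members 6 had at least 1 promoter in the table, namely Sp5, Axin2, Lef1, Nkd1, Wnt6 and Dkk1, and 3 of them held a match, the third being 1 of the 4 Lef1 promoters. Of all 32851 promoters listed by RefSeq there, 14.8% held at least 1 match in a window of this length and 1.43% held 2 or more. These shares are by promoter, whereas the 3 of 6 is by gene. Lef1 had 4 promoters and the others 1 each, so the 2 figures are not directly comparable. A match is a description of letters and is no evidence of binding.

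Expression is given as log2(intensity + 1), with standard deviations (SD) over 3 cultures, and differences are the first-named line minus the second. Levels of different genes are not set against each other, because probe sets differ in brightness. A difference was called at an adjusted p under 0.05 in limma, with Benjamini-Hochberg adjustment over all 28939 tested probe sets. Between arrays of a line the correlation of log2 values lay between 0.996 and 0.997. Pluripotency markers were bright in the mean over arrays. Each of the 12 measured, Pou5f1, Sox2 and Nanog among them, exceeded the 40th percentile of probe set means (5.21). Fibroblast genes were bright as well, with 24 of 25 above that level in the mean over arrays, as were 7 of 8 endoderm and 6 of 8 streak genes. Passing this level therefore does not by itself bear out the label of pluripotent cells. The cultures of LiPS-50 stood apart from the rest in the median level of fibroblast, pluripotency, primitive streak and endoderm genes, given with their values after the members. For the pluripotency and endoderm lists the summed intensities overlapped with other lines and the called genes went both ways. In bulk RNA fewer cells of a type and less RNA per cell cannot be told apart.

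Sp5, Axin2 and Lef1 were lowest in LiPS-50, whereas Notum was highest there, and the other 5 measured members passed no test between any pair of lines. In LiPS-45, LiPS-57 and LiPS-47 alike, 3 of 9 members were called higher and 1 lower than in LiPS-50. Over all probe sets the calls against LiPS-50 were 8.3% higher and 8.18% lower for LiPS-45, 7.48% higher and 8.16% lower for LiPS-57, and 7.31% higher and 8.48% lower for LiPS-47. With each array centred on its median the share of calls that were higher was 65.2%, 62.2% and 56.3% for these lines in this order, against 50.4%, 47.8% and 46.3% as deposited, while the members' counts did not change. The median difference of the 9 members was 0.12, 0.11 and 0.16 in the same order, and that of all probe sets lay between -0.00024 and 0.014. These comparisons share the LiPS-50 arrays and are not independent of each other.

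**Figure D1:**
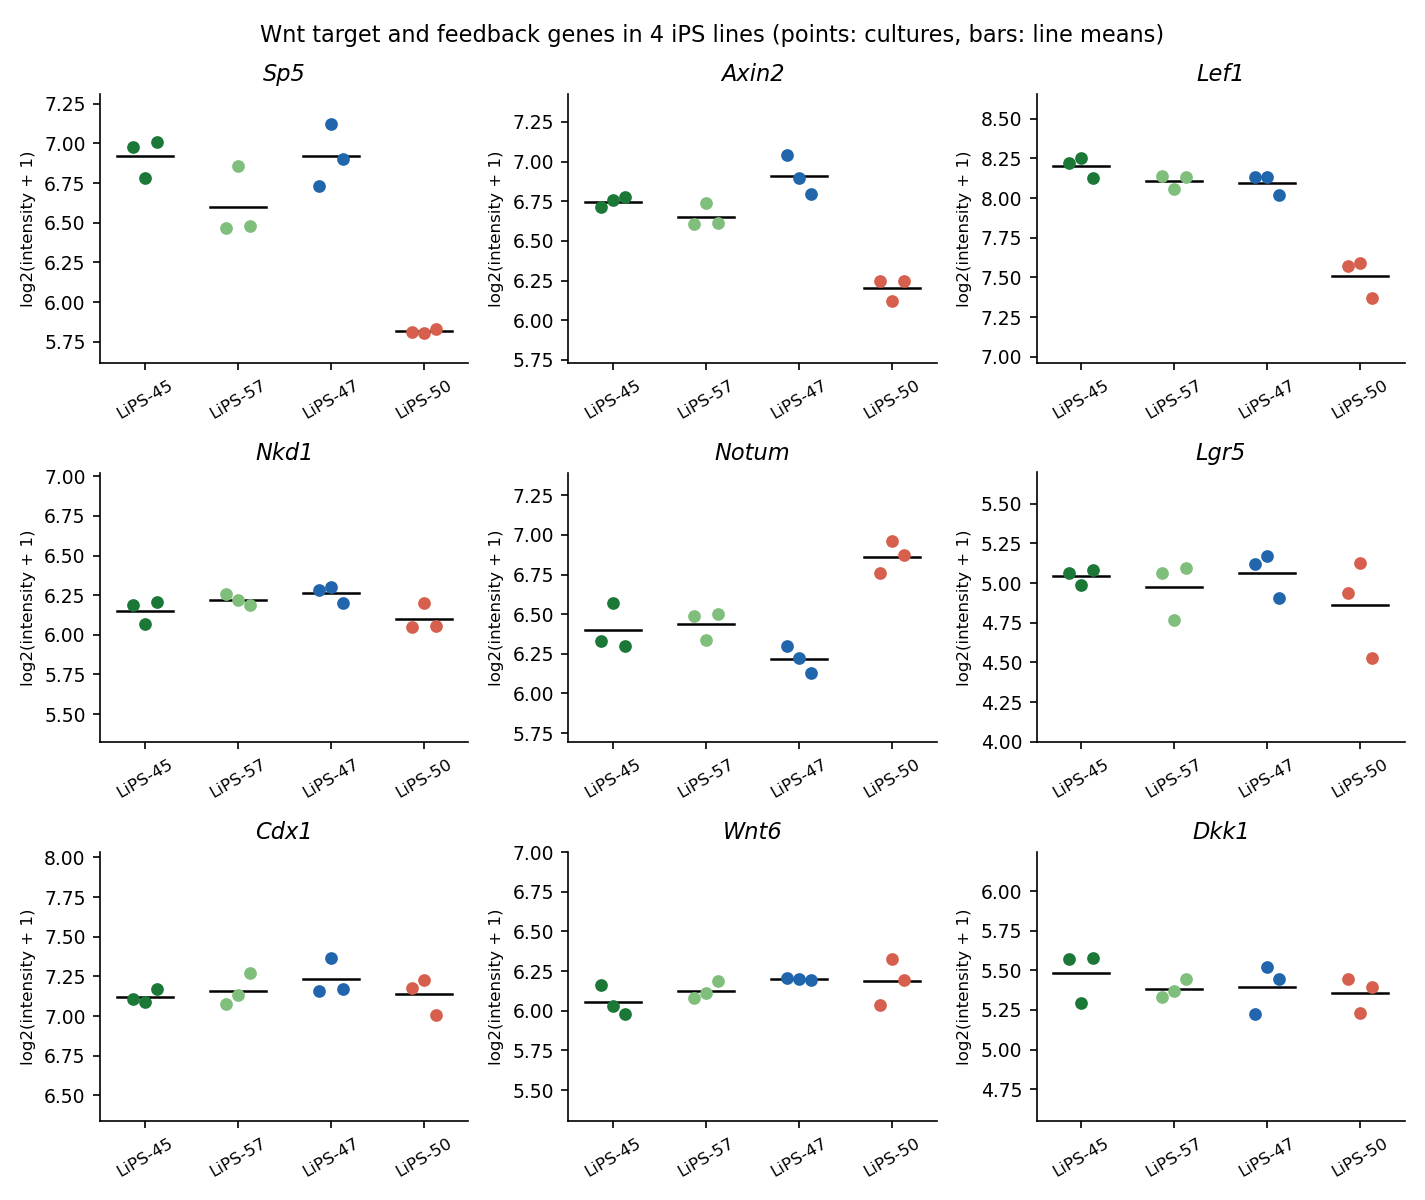
Each panel plots log2(intensity + 1) of 1 member in the 12 cultures, with lines along the x axis, cultures as points, line means as bars and the same span on every y axis. The LiPS-50 cultures lie below all others for Sp5, Axin2 and Lef1 and above all others for Notum, and they overlap with other lines for Nkd1, Lgr5, Cdx1, Wnt6 and Dkk1.

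Sp5 encodes a zinc finger transcription factor of the Sp family, a direct target of beta-catenin that in turn dampens other Wnt targets. It was measured at 6.98, 6.78 and 7.01 in LiPS-45, at 6.47, 6.85 and 6.48 in LiPS-57, at 6.73, 7.12 and 6.90 in LiPS-47, and at 5.81, 5.81 and 5.83 in LiPS-50. The LiPS-50 cultures lay close together and below the lowest culture of every other line. Sp5 was 2.16-fold higher in LiPS-45 than in LiPS-50 (log2 difference 1.11, standard error, SE, 0.117, limma adjusted p = 5.82e-05). It exceeded LiPS-50 1.73-fold in LiPS-57 (0.79, adjusted p = 0.000806) and 2.15-fold in LiPS-47 (1.10, adjusted p = 6.4e-05). The order of the means was LiPS-45 and LiPS-47 (6.92 ± 0.124 and 6.92 ± 0.198), LiPS-57 (6.601 ± 0.22) and LiPS-50 (5.81 ± 0.0113; SD, n = 3 each), and only the last step passed the test. LiPS-57 lay below LiPS-47 without a call (-0.32, 95% interval -0.57 to -0.062, adjusted p = 0.605).

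Axin2 encodes a scaffold of the beta-catenin destruction complex and is the classical negative feedback target of the pathway. Its cultures stood at 6.71, 6.76 and 6.78 in LiPS-45, at 6.61, 6.74 and 6.61 in LiPS-57, at 7.04, 6.90 and 6.80 in LiPS-47, and at 6.24, 6.12 and 6.25 in LiPS-50. LiPS-50 was below all other cultures, and the LiPS-47 cultures lay above all those of LiPS-45 and LiPS-57. Axin2 was 1.46-fold higher in LiPS-45 than in LiPS-50 (0.54, SE 0.0729, limma adjusted p = 0.000354). Against LiPS-50 it was 1.37-fold higher in LiPS-57 cultures (0.45, adjusted p = 0.00143) and 1.63-fold higher in LiPS-47 (0.71, adjusted p = 5.31e-05). The differences from LiPS-47 were not called for LiPS-45 (-0.16, 95% interval -0.32 to -0.0054, adjusted p = 0.54) or LiPS-57 (-0.26, 95% interval -0.42 to -0.099, adjusted p = 0.428), although the groups did not overlap.

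Lef1 encodes a DNA-binding partner of beta-catenin and is itself a Wnt target. It was measured at 8.22, 8.25 and 8.13 in LiPS-45, at 8.14, 8.06 and 8.13 in LiPS-57, at 8.13, 8.13 and 8.02 in LiPS-47, and at 7.57, 7.59 and 7.37 in LiPS-50. The 9 cultures of the other lines lay within a narrow band and LiPS-50 lay wholly below it. Lef1 was 1.61-fold higher in LiPS-45 than in LiPS-50 (0.69, SE 0.0718, limma adjusted p = 5.3e-05). Relative to LiPS-50 it was 1.52-fold higher in LiPS-57 cultures (0.60, adjusted p = 0.000179) and higher by 0.58 on the log2 scale in LiPS-47 (adjusted p = 0.000194). Among the first 3 lines the differences ranged from 0.017 to 0.11 and none was called.

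Notum encodes a secreted carboxylesterase that removes the lipid from Wnt proteins and so inactivates them outside the cell. Its values were 6.33, 6.57 and 6.30 in LiPS-45, 6.49, 6.34 and 6.50 in LiPS-57, 6.30, 6.23 and 6.13 in LiPS-47, and 6.76, 6.96 and 6.87 in LiPS-50. All LiPS-50 cultures lay above the highest of the others, which was LiPS-45 replicate 2. Notum was 1.38-fold lower in LiPS-45 than in LiPS-50 (-0.46, SE 0.0873, limma adjusted p = 0.00341). It was 1.34-fold lower in LiPS-57 (-0.42, adjusted p = 0.00623) and 1.56-fold lower in LiPS-47 (-0.65, adjusted p = 0.000369), each against LiPS-50. LiPS-57 and LiPS-47 did not overlap, but their difference of 0.22 was not called (95% interval 0.033 to 0.41, adjusted p = 0.642).

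The remaining feedback members showed no called difference. Nkd1, which encodes an intracellular antagonist that binds Dishevelled, averaged 6.15 ± 0.0753, 6.22 ± 0.0358 and 6.26 ± 0.0529 in LiPS-45, LiPS-57 and LiPS-47, against 6.10 ± 0.0864 in LiPS-50 (n = 3 each). Its widest difference, LiPS-47 minus LiPS-50, was 0.16 (95% interval 0.019 to 0.30, limma adjusted p = 0.129). Dkk1, a secreted inhibitor that binds Lrp5 and Lrp6, averaged 5.48 ± 0.161, 5.38 ± 0.0586 and 5.40 ± 0.154 in LiPS-45, LiPS-57 and LiPS-47 and 5.36 ± 0.111 in LiPS-50. Its cultures overlapped in every pair of lines, and its difference of LiPS-45 from LiPS-50 was 0.12 (95% interval -0.090 to 0.34). The intervals of Nkd1 and Dkk1 against LiPS-50 reached at most 0.30 and 0.34. Dkk1 had a mean of 5.40 over all arrays, near the 40th percentile of 5.21, where small changes are compressed.

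Lgr5, a receptor for R-spondins that potentiates Wnt signals and marks stem cells of the adult gut, had a mean of 4.99 over all arrays, below the 40th percentile of probe sets. It averaged 5.05 ± 0.0495, 4.97 ± 0.181 and 5.07 ± 0.14 in LiPS-45, LiPS-57 and LiPS-47, against 4.86 ± 0.309 in LiPS-50 (n = 3 each), and all pairs overlapped. Cdx1, a caudal-type homeobox gene of posterior patterning, averaged 7.12 ± 0.0434, 7.16 ± 0.1 and 7.23 ± 0.116 in LiPS-45, LiPS-57 and LiPS-47 and 7.14 ± 0.115 in LiPS-50. Its differences from LiPS-50 lay between -0.016 and 0.093. Wnt6, a ligand, averaged 6.06 ± 0.0931, 6.13 ± 0.0579 and 6.20 ± 0.00705 in LiPS-45, LiPS-57 and LiPS-47, against 6.19 ± 0.144 in LiPS-50. Its LiPS-47 cultures lay above all cultures of LiPS-45 and LiPS-57, with LiPS-45 at -0.14 and LiPS-57 at -0.073 relative to LiPS-47, neither of them called (limma adjusted p = 0.636 and 0.917).

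**Figure D2:**
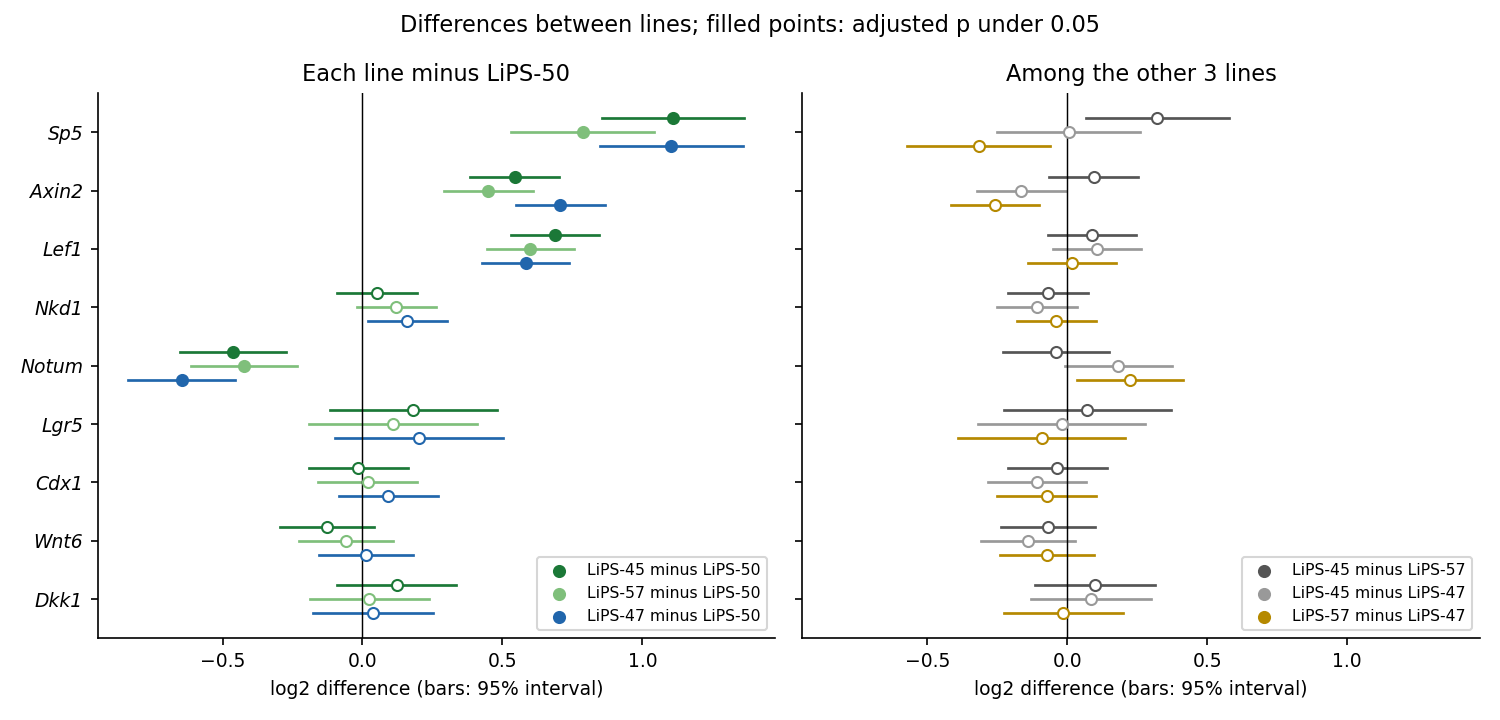
The x axis gives the log2 difference of each member, with each line minus LiPS-50 on the left and the pairs among LiPS-45, LiPS-57 and LiPS-47 on the right, points as estimates and bars as 95% intervals. Filled points, with an adjusted p under 0.05, occur for Sp5, Axin2, Lef1 and Notum in the left panel and for 0 members in the right one.

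Among LiPS-45, LiPS-57 and LiPS-47, limma called 0 of 9 members in each pair. The share of all probe sets called was 0.266% for LiPS-45 against LiPS-57, 0.0622% for LiPS-45 against LiPS-47 and 0.159% for LiPS-57 against LiPS-47, so that 0 of 9 is near the background. At an unadjusted p under 0.05 the members numbered 1, 1 and 3 of 9 in these pairs. Over all 28939 tested probe sets, 2318, 2585 and 1995 passed that level in the same order. Whether the member counts differ from these was not tested. The question of competence, which the series was built on, also gave 0 of 9 members with the line as a random block, and 0% of all probe sets. Lef1 came closest, at 0.35 higher in the competent lines (SE 0.127, unadjusted p = 0.015, limma adjusted p = 0.648). For Sp5 the difference was 0.40 (SE 0.238, adjusted p = 0.689), for Axin2 0.14 (SE 0.148, adjusted p = 0.811) and for Notum -0.12 (SE 0.143, adjusted p = 0.837). In each of these genes LiPS-47, labelled as lacking competence, differed from LiPS-50 in the same direction as both competent lines.

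Over the 12 arrays Sp5 had a Pearson correlation of 0.912 with Axin2 and 0.879 with Lef1, and of -0.925 with Notum; Axin2 and Notum had one of -0.909. The same split of LiPS-50 from the other cultures enters each of these values, so they describe the arrays and are no test. Among 12945 other genes above the 40th percentile, the 3 with the pattern most like that of Sp5 over the 12 arrays were Dapk3, Smchd1 and Rgl2 (r from 0.969 to 0.972). For Axin2 they were Baz1a, Pbx2 and Trim67 (0.974 to 0.977), for Lef1 Lig1, Nras and Patz1 (0.966 to 0.973) and for Notum Ctc1, Ilvbl and Cemip (0.95 to 0.959). All of the genes like Sp5, Axin2 and Lef1 had their lowest line mean in LiPS-50, for example 7.29, 7.15 and 7.37 for Trim67 in LiPS-45, LiPS-57 and LiPS-47 against 6.45 in LiPS-50. Those like Notum had their highest there.

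Fibroblast and feeder genes also set LiPS-50 apart. They were higher there, the direction of Notum and the opposite of that of Sp5, Axin2 and Lef1. Of 25 measured genes of that list, 24 were called lower in LiPS-45 than in LiPS-50, with 0 called higher. The counts were the same in LiPS-57 and LiPS-47. The median differences were -0.69, -0.69 and -0.83 in LiPS-45, LiPS-57 and LiPS-47. The summed intensity of the list lay between 27114 and 31774 in LiPS-45, 27436 and 29384 in LiPS-57, 23393 and 28652 in LiPS-47, and 37357 and 41760 in LiPS-50. Of these markers only Lum lay below the 40th percentile in the mean over arrays. The median log2 value of the list was lowest in LiPS-47 replicate 3 (8.02) and, outside LiPS-50, highest in LiPS-45 replicate 2 (8.69). Those cultures were also the lowest and, outside LiPS-50, the highest for Notum. Other cultures did not keep this order: LiPS-47 replicate 2 had the next highest fibroblast median outside LiPS-50 (8.62) but the next lowest Notum (6.23). Within LiPS-50 the order was different: replicate 2 had the lowest fibroblast median (9.10) and the highest Notum.

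**Figure D3:**
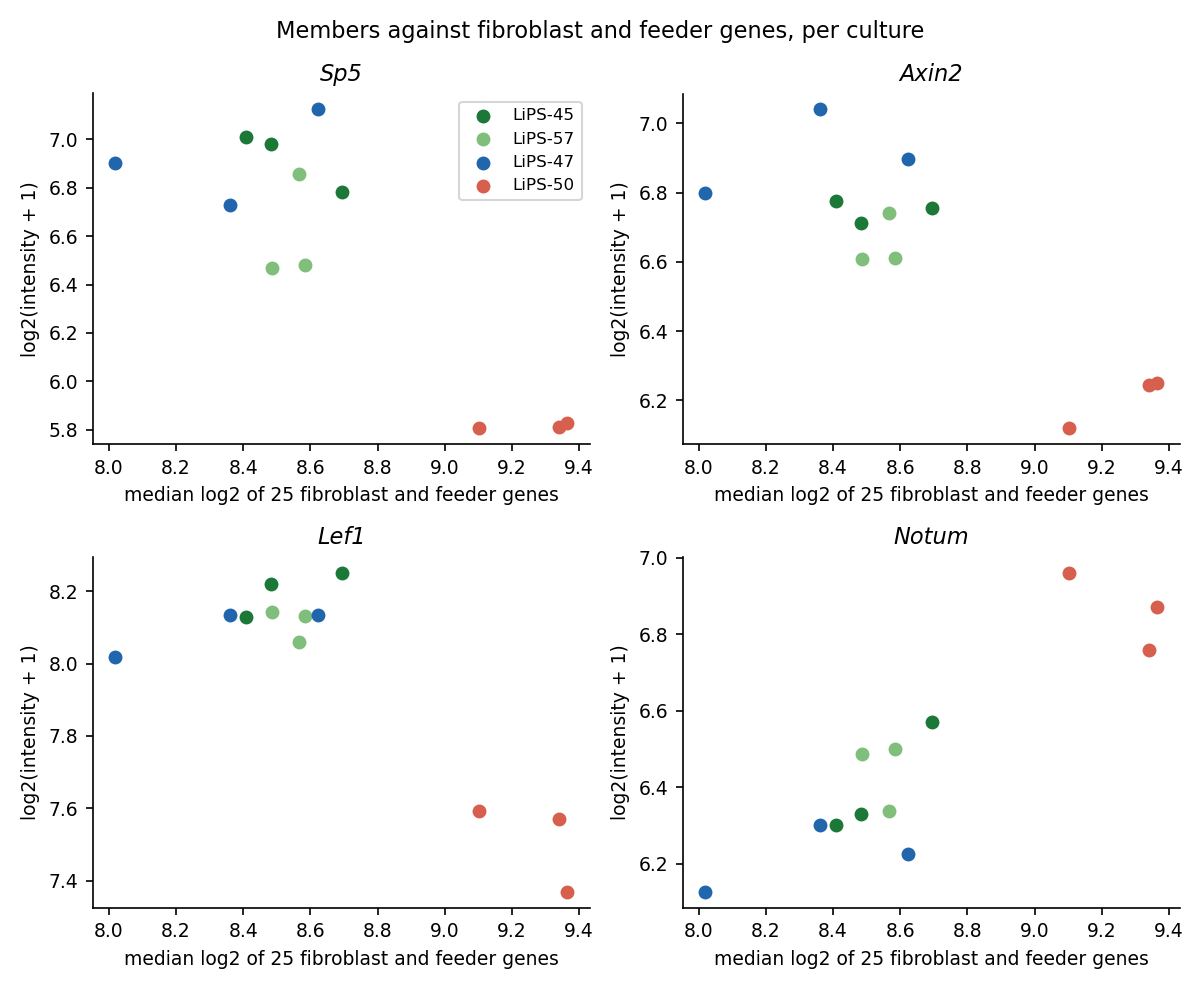
Each panel plots log2(intensity + 1) of 1 called member against the median log2 value of the 25 measured fibroblast and feeder genes, with a point per culture and a colour per line. The LiPS-50 cultures, with fibroblast medians between 9.10 and 9.36, do not overlap with the other 9 cultures (8.02 to 8.69) on either axis.

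With the median of the fibroblast list as a covariate, an alternative added after the values were seen, the differences of Sp5, Axin2 and Lef1 from LiPS-50 did not shrink. Sp5 was then 1.201, 0.88 and 1.22 higher in LiPS-45, LiPS-57 and LiPS-47, Axin2 0.70, 0.61 and 0.91 higher, and Lef1 0.76, 0.67 and 0.67 higher. The errors grew (for Sp5 in LiPS-45 to an SE of 0.242), and the calls were kept for LiPS-45 alone (limma adjusted p = 0.0419, 0.0406 and 0.0352 for Sp5, Axin2 and Lef1) and lost for LiPS-57 and LiPS-47 (0.0521 to 0.18). Notum fell by 0.33, 0.29 and 0.47 in LiPS-45, LiPS-57 and LiPS-47 under this fit, smaller than before, and lost its call in all 3 (0.504 to 0.59). Since the fibroblast medians of LiPS-50 did not overlap with the rest, this fit separates line from fibroblast level only through the spread between cultures of a line.

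The other genes of the pathway moved in both directions. Of 96 ligands, receptors, inhibitors, transducers, nuclear partners and further targets in the lists, 95 were measured. In LiPS-45 against LiPS-50, 18 were called higher and 15 lower, in LiPS-57 18 and 15, and in LiPS-47 22 and 16, with medians of 0.0093, -0.012 and 0.034. Over all probe sets 7.31% to 8.3% were called higher and 8.16% to 8.48% lower against LiPS-50. The counts of each list below are of genes called higher or lower. They stand beside these same shares, and a few calls in a short list can lie near them. Among the other 3 lines and for competence 0 of 95 were called.

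Among 20 genes for ligands and their secretion, 2 were higher and 4 lower in LiPS-45, 1 higher and 5 lower in LiPS-57, and 4 higher and 4 lower in LiPS-47, each against LiPS-50. Wnt3, the ligand that the mouse embryo needs to form a primitive streak, was 1.51-, 1.41- and 1.59-fold higher in LiPS-45, LiPS-57 and LiPS-47 than in LiPS-50 (limma adjusted p = 0.00098, 0.00341 and 0.000416). Wnt8a, another ligand of the early embryo, was higher in LiPS-45 (1.32-fold) and LiPS-47 (1.51-fold), and its difference in LiPS-57 was 0.21 (adjusted p = 0.0599). Wnt2 went the other way, at 5.43 ± 0.0235, 5.63 ± 0.0626 and 5.61 ± 0.114 in LiPS-45, LiPS-57 and LiPS-47, against 5.99 ± 0.0914 in LiPS-50 (SD, n = 3 each), and was called lower in each. Porcn, the enzyme that attaches the lipid to Wnt proteins, was 1.32-fold lower in LiPS-57 and 1.42-fold lower in LiPS-47 than in LiPS-50, with a difference of -0.14 in LiPS-45 (adjusted p = 0.203). Porcn is X-linked, and 739 X-linked genes had medians of -0.16, -0.15 and -0.14 against LiPS-50 in LiPS-45, LiPS-57 and LiPS-47, while autosomal medians lay between -0.0087 and 0.012; the part of this in the Porcn result was not tested.

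Of 22 receptors and R-spondin genes, 7 were higher and 2 lower in LiPS-45, 7 higher and 0 lower in LiPS-57, and 9 higher and 1 lower in LiPS-47 than in LiPS-50. The Frizzled receptor Fzd5 was 1.32-, 1.34- and 1.28-fold higher in LiPS-45, LiPS-57 and LiPS-47, and Fzd2 1.22-, 1.34- and 1.31-fold. Lgr4, the relative of Lgr5 that also binds R-spondins, was higher by 0.47, 0.47 and 0.38 (limma adjusted p = 0.00167, 0.00187 and 0.00579). Ror2, a receptor tyrosine kinase for Wnt5a, was higher in each line, with the narrowest difference of 0.18 in LiPS-57 (adjusted p = 0.0404).

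Secreted inhibitors and their receptors numbered 16, of which 1 was higher and 4 lower in LiPS-45, 2 higher and 4 lower in LiPS-57, and 2 higher and 4 lower in LiPS-47 than in LiPS-50. Dkk3, a secreted protein of the Dickkopf family, was 1.67-, 1.74- and 1.61-fold lower in LiPS-45, LiPS-57 and LiPS-47 (limma adjusted p = 0.000254, 0.000156 and 0.000385). Sfrp4, a decoy that binds Wnt proteins, was called lower in each, but its probe set had a mean of 5.01 over all arrays, below the 40th percentile (5.21), with 4.99 ± 0.0736, 4.99 ± 0.0661 and 4.62 ± 0.154 in LiPS-45, LiPS-57 and LiPS-47, against 5.44 ± 0.197 in LiPS-50, so no fold is given. Kremen2, a receptor that works with Dkk1, was higher in each line, by 0.37, 0.32 and 0.48, and Sfrp2 in LiPS-57 (0.52) and LiPS-47 (0.29).

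Of 14 genes of the core that handles beta-catenin, 1 was higher and 0 lower in LiPS-45, and 1 higher and 1 lower in LiPS-57 and in LiPS-47, against LiPS-50, beside 7.31% to 8.3% higher and 8.16% to 8.48% lower over all probe sets. Ctnnb1, the beta-catenin gene, chosen once its values had been seen, averaged 11.21 ± 0.0412, 11.12 ± 0.0259 and 11.17 ± 0.012 in LiPS-45, LiPS-57 and LiPS-47, against 11.20 ± 0.0119 in LiPS-50 (n = 3 each), and was called in 0 pairs. Its LiPS-57 cultures nevertheless lay below those of every other line, and its LiPS-47 cultures lay below those of LiPS-50. The called genes were Tnks2, a tankyrase that promotes Axin turnover (higher by 0.21 in LiPS-45 and 0.20 in LiPS-47), Dvl2, a Dishevelled (higher by 0.19 in LiPS-57), and the X-linked Amer1, a membrane anchor of Apc (-0.33 in LiPS-57 and -0.31 in LiPS-47).

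Of 12 partners and corepressors of Tcf proteins, 4 were higher and 1 lower in LiPS-45 and in LiPS-57, and 2 higher and 1 lower in LiPS-47. Tcf7l1, the main repressor of the family in embryonic stem cells, was 1.22-fold higher in LiPS-45 and 1.25-fold higher in LiPS-57 than in LiPS-50, and 0.23 above it in LiPS-47 without a call (limma adjusted p = 0.0625). Bcl9, a coactivator that binds beta-catenin, was higher by 0.37, 0.38 and 0.38 in LiPS-45, LiPS-57 and LiPS-47, whereas its paralogue Bcl9l was 1.17-, 1.22- and 1.24-fold lower. Of 6 genes that Tcf7l1 represses in embryonic stem cells, 1 was higher and 0 lower in LiPS-45, 2 higher and 0 lower in LiPS-57, and 1 higher and 2 lower in LiPS-47. Tdgf1, the Nodal co-receptor, was higher in each by 0.22 to 0.27, Klf2 was higher in LiPS-57 by 0.28, and Nanog and the X-linked Nr0b1 were lower in LiPS-47 (-0.20 and -0.28).

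Further Wnt targets moved in both directions. Of 11 measured, 3 were higher and 4 lower in LiPS-45 and in LiPS-57, and 4 higher and 5 lower in LiPS-47, against LiPS-50. Ascl2, a target in intestinal stem cells and a factor of the trophoblast, had the widest difference: it averaged 5.86 ± 0.0498, 6.00 ± 0.107 and 6.00 ± 0.175 in LiPS-45, LiPS-57 and LiPS-47, against 7.27 ± 0.248 in LiPS-50 (SD, n = 3 each), and was 2.65-, 2.41- and 2.40-fold lower (limma adjusted p = 9.92e-06, 2.88e-05 and 2.46e-05). Cd44, a surface glycoprotein that fibroblasts also carry, was 1.39-, 1.54- and 1.71-fold lower. Tnfrsf19, a receptor of the tumour necrosis factor family, was higher by 0.67, 0.48 and 0.63 on the log2 scale, and Prickle1, of the planar polarity branch, 1.65-, 1.62- and 1.67-fold higher.

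**Figure D4:**
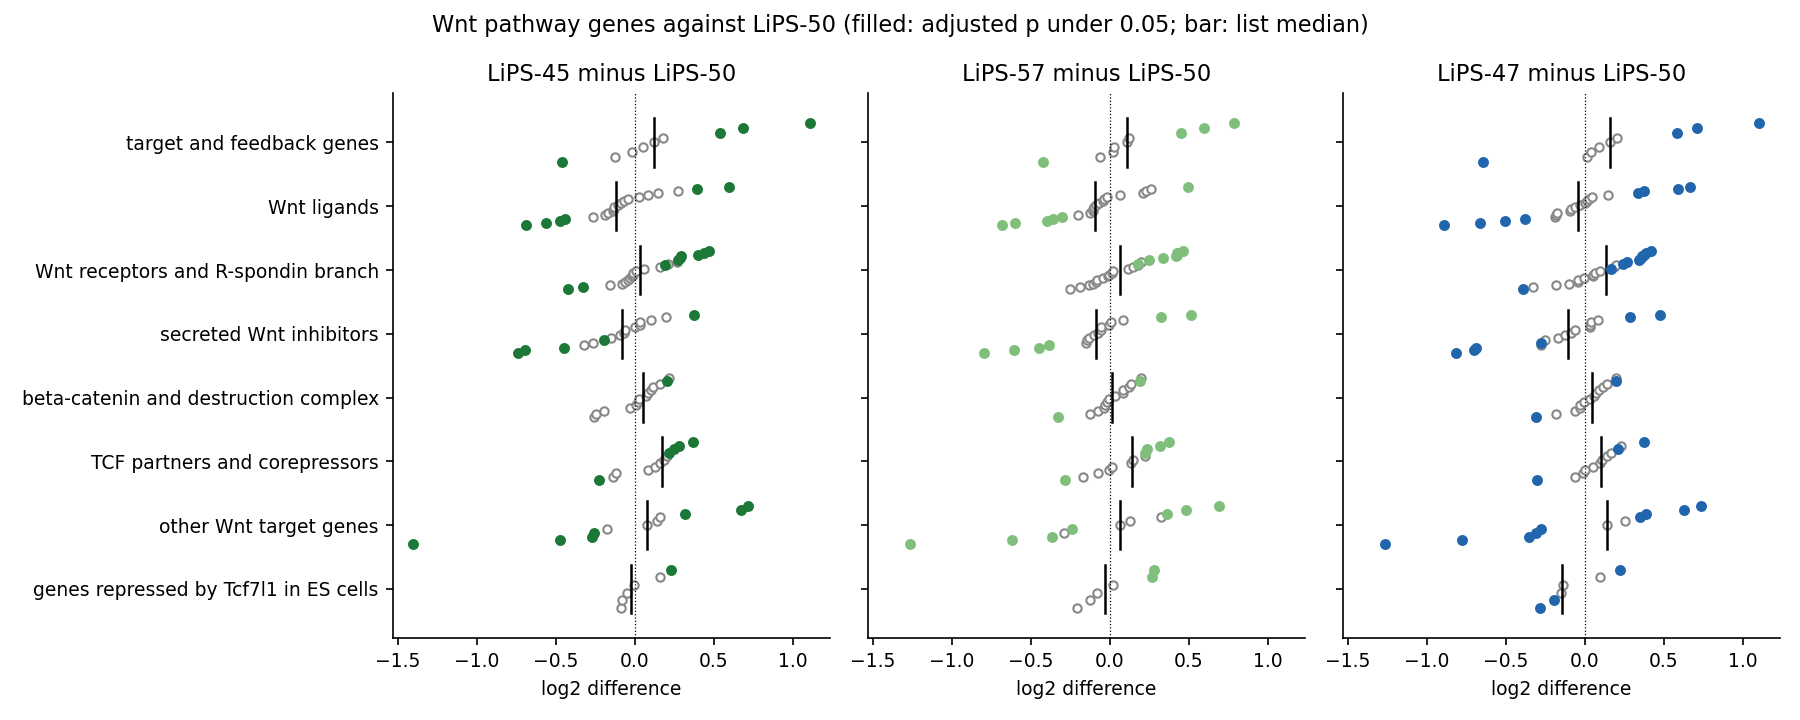
Each panel plots the log2 difference of a line minus LiPS-50 for the measured genes of 8 lists, with a point per gene, filled where the adjusted p is under 0.05, and a bar at the list median. Called genes lie on both sides of 0 in most lists, and the widest negative difference is that of Ascl2 among the other Wnt targets.

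Some genes of the primitive streak, which Wnt signals induce, were also higher than in LiPS-50. Of 8 measured, those called higher numbered 5, 5 and 4 for LiPS-45, LiPS-57 and LiPS-47, with 0 lower and medians of 0.58, 0.49 and 0.52. Eomes, Mixl1, Fgf8 and Wnt3 were called in each line and Gsc in LiPS-45 and LiPS-57. Eomes, a T-box factor of the streak, averaged 7.94 ± 0.0685, 7.67 ± 0.13 and 7.69 ± 0.143 in LiPS-45, LiPS-57 and LiPS-47, against 6.39 ± 0.197 in LiPS-50 (SD, n = 3 each). The mesoderm factors Mesp1 and Mesp2 and the homeobox gene Evx1 were called in no line. In LiPS-45 they differed from LiPS-50 by -0.043, -0.25 and -0.047, without overlap of cultures for Mesp2, and Mesp1 and Evx1 lay below the 40th percentile. The summed intensity of the list was 951 to 985 in LiPS-45, 820 to 913 in LiPS-57, 935 to 943 in LiPS-47 and 493 to 545 in LiPS-50. Wnt3 stands in this list and in that of the ligands.

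Endoderm genes were mixed. Of 8 measured, 2 were higher and 2 lower in LiPS-45, and 1 higher and 1 lower in LiPS-57 and in LiPS-47, than in LiPS-50. Foxa2, a forkhead factor of endoderm and the anterior streak, averaged 6.76 ± 0.0209, 6.35 ± 0.0657 and 6.53 ± 0.143 in LiPS-45, LiPS-57 and LiPS-47, against 5.48 ± 0.223 in LiPS-50, and was called higher in each (limma adjusted p = 6.31e-06, 0.000158 and 3.62e-05). Dab2, an endocytic adaptor, was called lower in each (-0.42, -0.55 and -0.77). The median level of the list lay between 5.97 and 6.16 in the cultures of LiPS-45, LiPS-57 and LiPS-47 and between 5.67 and 5.84 in those of LiPS-50, while the median difference of its genes was -0.018, -0.016 and -0.020. Its summed intensity overlapped, at 587 to 623 in LiPS-45, 555 to 571 in LiPS-57, 535 to 581 in LiPS-47 and 569 to 617 in LiPS-50.

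Of the 12 pluripotency genes, 5 were higher and 1 lower in LiPS-45, 4 higher and 1 lower in LiPS-57, and 3 higher and 2 lower in LiPS-47, against LiPS-50. Lin28a, an RNA-binding protein of pluripotent cells, averaged 10.14 ± 0.0134, 10.20 ± 0.0138 and 10.17 ± 0.0169 in LiPS-45, LiPS-57 and LiPS-47, against 9.70 ± 0.0273 in LiPS-50, and Dppa5a was called lower in each line. The median level of the list lay between 10.29 and 10.38 in the cultures of the first 3 lines and between 10.08 and 10.12 in those of LiPS-50, without overlap. The summed intensity was 23194 to 23959 in LiPS-45, 23805 to 24209 in LiPS-57, 23176 to 23617 in LiPS-47 and 22750.0 to 23289 in LiPS-50. The part of cells expressing streak, endoderm or pluripotency genes in the results for Sp5, Axin2, Lef1 and Notum was not tested.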

How the data were processed

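The authors deposited a linear intensity for each probe set on each array. The submitters' processing notes name GCOS 1.4. How probes were summarised, corrected for background and normalized is not stated there. Values were turned into log2(value + 1), which understates changes of dim genes. Of 35556 probe sets, 6617 numbered below the annotation's lowest identifier were treated as controls and left out, which leaves 28939 tested. Symbols came through gene identifiers from RefSeq (GRCm38.p6), which matched 19856 of 19938 genes. The annotation names no genome build for the probes.

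Tests used limma 3.58.1 in R 4.3.3 (lmFit, eBayes, two-sided). Line pairs were contrasts in 1 model of 4 line means on 12 arrays (residual degrees of freedom 8, prior 4.06). For competence the line entered as a random block (consensus correlation 0.183). The number of arrays limits the precision. The fit was tested on simulated data. Members and lists were chosen with earlier results of these data known. All members are named, with up to 4 called genes per other list by smallest adjusted p, and the 3 genes closest in pattern to each called member. Replicate numbers were not taken to pair the cultures. After line means were removed, 4 of 18 same-numbered pairs across lines correlated above 0.1. Of pairs with different numbers, 6 of 36 did so. Alternatives were median centring, quantile normalization, control probe sets included, dim probe sets removed, a pseudocount of 16, a variance trend, the replicate block, fewer lines in the fit and each culture left out.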

Additional observations from a re-analysis of the deposited data

How the results depend on the processing

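The 4 members called against LiPS-50 in each line gave 12 results, and all 12 kept direction and call under the 20 alternatives planned for each, with adjusted p-values of at most 0.0295 (Notum in LiPS-57). Without any 1 culture the count stayed at 4 against LiPS-50 and at 0 in the other pairs and for competence. With the replicate block the counts were also 4 and 0, and 5 of 12 arrays correlated best with an array of their own number. With the fibroblast covariate, added after seeing the data, the count against LiPS-50 was 3 for LiPS-45, 0 for LiPS-57 and 0 for LiPS-47; over all probe sets calls fell to 339, 285 and 111 in this order, against 4771, 4527 and 4568. Testing competence by line means, without the line as a random block, called 2 members, Sp5 (adjusted p = 0.0146) and Lef1 (0.00165), and 1789 probe sets against 0; its error holds only the spread between cultures. Over all probe sets the LiPS-45 against LiPS-47 count of 18 ranged from 3 with these lines alone to 84 with a variance trend, that of LiPS-57 against LiPS-47 (46) from 19 to 80 and that of LiPS-45 against LiPS-57 (77) from 41 to 135. Without LiPS-45 replicate 3 there were 3106 calls for LiPS-45 against LiPS-50 and 6 against LiPS-47, without LiPS-47 replicate 3 there were 44 for LiPS-45 against LiPS-47, and without LiPS-57 replicate 1 there were 41 for LiPS-45 against LiPS-57 and 23 for LiPS-57 against LiPS-47. Each measured member has 1 probe set, so the alternative of averaging probe sets was not run. Lgr5, Dkk1 and Sfrp4 lie near or below the 40th percentile, where small changes are compressed.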
